A study of Sus scrofa with 16 samples.

Results

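The accessible chromatin of newborn spleen was compared with that of newborn liver. Peaks of the merged spleen list and of the merged liver list on chromosomes 1 to 18 were sorted into 3 sets by an overlap of at least 1 bp: spleen peaks without a liver peak (spleen-only), liver peaks without a spleen peak (liver-only), and peaks found in both lists. The spleen list gave 31832 spleen-only peaks of 81289, and the liver list gave 65540 liver-only peaks of 115504. The other 49457 spleen peaks met 49964 liver peaks. All 8 lists of the series hold 798988 peaks together. ATAC-seq reads open DNA through a transposase that inserts adaptors where no nucleosome blocks it. Both groups were tissue of female crossbred pigs at day 0 of the labels, which name no treatment or genetic change, with 2 libraries each. The study describes the donors as 2 full sisters of a Berkshire and Tibetan cross, aged 1 day, both of which gave each organ, and their nuclei came from frozen whole tissue. A peak can therefore come from any cell type of the organ, and fewer cells of a type cannot be told apart from less open chromatin in each cell. No read counts accompany the lists, so depth is unknown from them, though the study reports the reads of each library. Each list merges its 2 libraries, which leaves no replicate error for a count or share, and no test was made. Intervals in brackets are Wilson 95% intervals and cover counting error only.

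The spleen filters blood and houses T cells, B cells and macrophages in a framework of reticular fibroblasts and vessels. In the fetus of many mammals both liver and spleen make blood cells, and this activity leaves the liver around and after birth. Red cell precursors depend on GATA1 and KLF1, lymphocytes and macrophages on factors such as PAX5, IKZF1 and PU.1 (SPI1). The spleen primordium is patterned by the homeobox genes TLX1 and NKX2-5, and hepatocytes by HNF4A and the FOXA factors.

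The following sequences were read from the Sscrofa11.1 genome around peak summits, without exon sequence, because they stand for the gene groups and motifs that differ between the sets. Capitals mark any match, on either strand, to 1 of 17 short motifs, among them AGATAA of GATA factors, GAGGAAGT of SPI1, CACTTAA of NKX2 factors, CAAAGTCCA of HNF4A and TGTTTAC of FOXA factors. The first 3 lie in spleen-only promoter peaks of SLC25A37 (chr14:7663922-7664042, + strand), which brings iron into mitochondria for heme, of CD3E (chr9:45619570-45619690, + strand), a chain of the T cell receptor complex, and of NKX2-5 (chr16:51085924-51086013, + strand).
SLC25A37: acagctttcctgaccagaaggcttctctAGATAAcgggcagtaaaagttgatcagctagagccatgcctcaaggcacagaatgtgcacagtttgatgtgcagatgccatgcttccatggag
CD3E: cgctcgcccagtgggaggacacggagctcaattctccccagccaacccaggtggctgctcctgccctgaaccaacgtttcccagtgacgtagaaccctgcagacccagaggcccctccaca
NKX2-5: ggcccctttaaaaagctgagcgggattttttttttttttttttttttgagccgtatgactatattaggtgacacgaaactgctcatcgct
The next 2 lie in promoter peaks found in both lists, at the red cell genes NFE2 (chr5:19497793-19497913, − strand) and AHSP (chr3:17060344-17060428, − strand), and were chosen after their values were seen. Each held 1 GATA match.
NFE2: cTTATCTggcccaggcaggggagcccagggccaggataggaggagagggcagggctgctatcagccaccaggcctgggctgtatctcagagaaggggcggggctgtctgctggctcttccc
AHSP: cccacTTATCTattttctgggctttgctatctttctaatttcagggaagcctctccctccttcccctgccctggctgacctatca
The liver-only promoter peak of F2, which encodes prothrombin (chr2:15819546-15819666, − strand), held no match. Nor did the CD3E and NKX2-5 windows. No match says only that these letters are not in the window.
F2: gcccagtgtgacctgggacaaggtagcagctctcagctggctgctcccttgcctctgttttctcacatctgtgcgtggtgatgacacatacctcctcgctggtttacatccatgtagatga
The last 5 are intergenic or intronic, all on the + strand, each from the strongest peak of its set outside promoters whose window held the named motif. They are examples chosen for that motif. The SPI1 example, 506 kb from the nearest gene CADM1 (chr9:43490815-43490935) and the NKX2 example, 386 kb from EDEM1 (chr13:62117938-62118058) are spleen-only, the GATA example, 21.7 kb from AHCY (chr17:37766045-37766165) is in both newborn lists and in neither later liver list, and the HNF4 example, 324 kb from PDE3A (chr5:53061664-53061784) and the FOXA example (chr14:80089346-80089466, in an intron of KCNMA1) are liver-only. The SPI1 example also held an NKX2 match, and the HNF4 example also held EBF and IRF matches.
SPI1 example: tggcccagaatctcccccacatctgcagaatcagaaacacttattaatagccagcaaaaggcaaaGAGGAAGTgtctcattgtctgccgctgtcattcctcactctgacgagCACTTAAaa
NKX2 example: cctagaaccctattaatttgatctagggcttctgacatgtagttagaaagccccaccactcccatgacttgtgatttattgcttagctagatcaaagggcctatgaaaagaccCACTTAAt
GATA example: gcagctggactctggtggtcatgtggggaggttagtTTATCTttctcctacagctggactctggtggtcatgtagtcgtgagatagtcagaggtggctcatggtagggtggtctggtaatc
HNF4 example: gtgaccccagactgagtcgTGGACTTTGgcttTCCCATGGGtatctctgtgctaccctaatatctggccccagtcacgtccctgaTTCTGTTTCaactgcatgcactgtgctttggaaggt
FOXA example: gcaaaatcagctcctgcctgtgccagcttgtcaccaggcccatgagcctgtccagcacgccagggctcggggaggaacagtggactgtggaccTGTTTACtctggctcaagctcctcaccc

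Spleen-only peaks made up 39.2% of the spleen list (38.8 to 39.5), and liver-only peaks 56.7% of the liver list (56.5 to 57.0). The liver list is the longer, and with equal numbers of top peaks these shares were 51.6% and 52.0%. Peaks of both sets were short and lay far from start sites. Their median distance from a transcription start site was 32.7 kb in the spleen-only and 29.1 kb in the liver-only set, against 12.8 kb for spleen peaks in both lists. The median width was 340 bp, 364 bp and 565 bp in the same order. A promoter was the stretch from 2.2 kb upstream to 500 bp downstream of a transcription start site. Promoters held 5.61% of the spleen-only peaks (5.37 to 5.87) and 5.93% of the liver-only peaks (5.75 to 6.11), but 28.0% of the spleen peaks in both lists (27.6 to 28.4). Introns held 47.1% of the spleen-only and 47.2% of the liver-only peaks, against 32.6% of the spleen peaks in both lists. Few peaks lay at the edge of the definition. Among peaks in both lists, 223 spleen peaks shared at most 50 bp with a liver peak, and 185 spleen-only peaks had a liver peak within 50 bp.

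Every peak carries a −log10 p from either library, a measure that depends in part on the depth of that library. Peaks were therefore ranked only within their own list, by the smaller of the replicate values, and a percentile of 100 is the strongest peak of that list. Spleen-only peaks had a median −log10 p of 6.60 in replicate 1 and 11.1 in replicate 2, and spleen peaks in both lists 11.3 and 22.4. For liver-only peaks the medians were 20.0 and 7.29, and for liver peaks in both lists 32.0 and 11.9. Replicate 2 was the stronger in spleen and replicate 1 in liver. By the reads that the study reports, the stronger library had fewer reads in spleen and more reads in liver. The order of the spleen replicates therefore cannot be read as an order of depth, and its cause was not tested. The irreproducible discovery rate (IDR) of a peak estimates the share of peaks not reproducible between replicates among those ranked at least as high. It was 0.05 or lower for 10.1% of the spleen-only and 36.0% of the other spleen peaks. In liver, 13.8% of the liver-only and 26.5% of the other peaks reached it.

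The share of peaks that met no peak of the other organ fell with strength in both lists, but to different levels. With each list cut into 10 equal steps of strength, 56.7% of the weakest step of the spleen list (55.6 to 57.8) and 2.78% of its strongest step (2.44 to 3.16), or 226 peaks, were spleen-only. In the liver list 70.6% of the weakest step (69.8 to 71.4) and 23.4% of the strongest step (22.6 to 24.2) were liver-only. Promoters showed the same order, with 0.179% of the strongest spleen promoter peaks (10 peaks) and 3.22% of the strongest liver promoter peaks (181 peaks) listed in 1 organ. The lists differ in length, and the part of this in the steps was not tested.

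**Figure D1:**
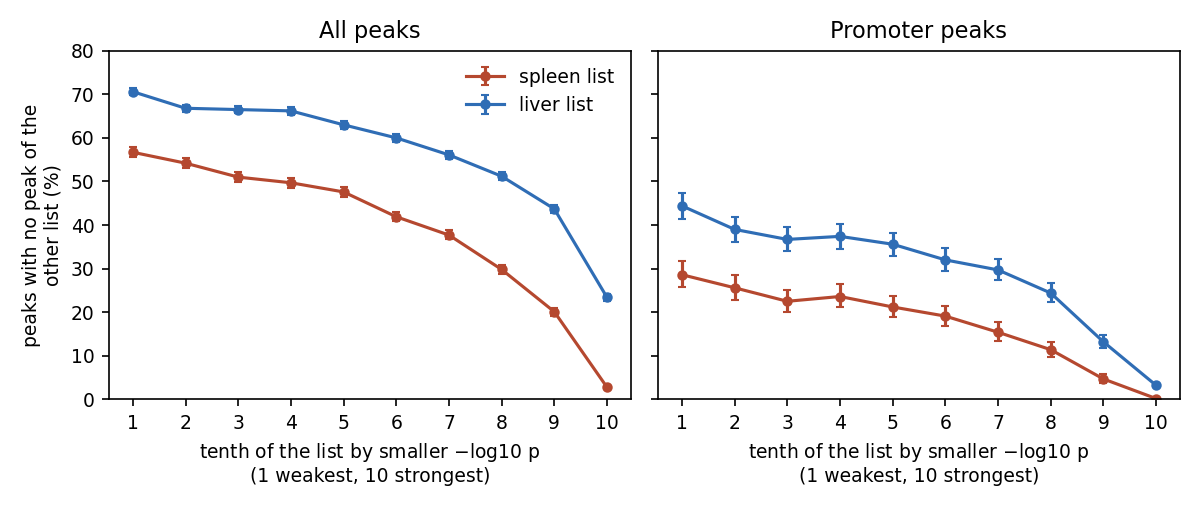
Share of peaks without a peak of the other list (y axis, percent) by step of strength within the own list, 10 being the strongest (x axis), for all peaks (left) and promoter peaks (right); bars are Wilson 95% intervals. Both curves fall with strength, and in the strongest step of all peaks the spleen list ends at 2.78% and the liver list at 23.4%.

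Promoters of 18725 protein-coding genes on these chromosomes were then read for the gene groups of each organ. At least 1 promoter peak was listed in each organ for 12534 genes, in spleen alone for 460 genes (2.46%), in liver alone for 1366 genes (7.30%) and in neither for 4365 genes. Counted by peak, 1571 genes (8.39%) had a spleen-only promoter peak, 3191 genes (17.0%) a liver-only one, and 12506 genes (66.8%) one found in both lists. A gene with several peaks can fall under more than 1 of these. With equal numbers of top peaks from each list the order turned, with 3177 genes for spleen-only and 2194 for liver-only promoter peaks. The groups came from 16 lists of 269 genes, of which 252 could be used. All 9 housekeeping genes used had promoter peaks in both lists.

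**Figure D2:**
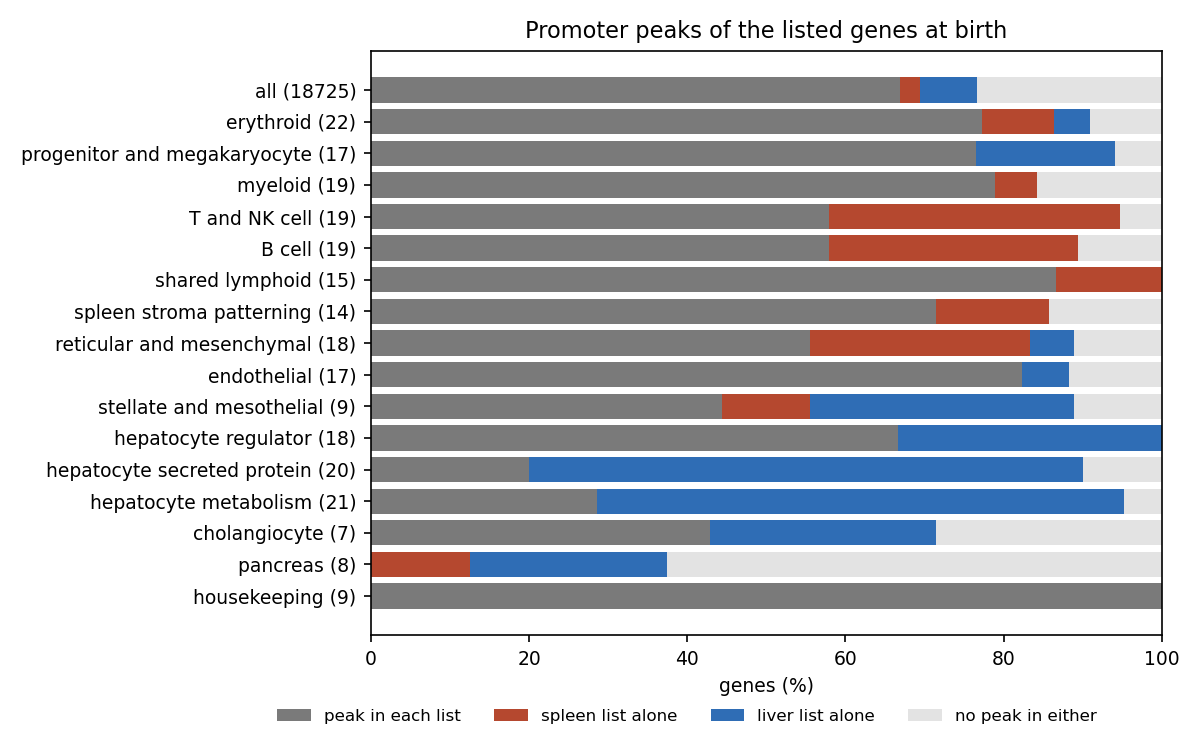
Promoter state of the genes in each list and of all genes (bars, percent of the genes used, whose number stands in brackets): a peak in each list, in spleen alone, in liver alone or in neither. T and NK cell, B cell and reticular lists carry the widest spleen segments, and the lists of hepatocyte secreted proteins and metabolism the widest liver segments.

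The 3 marker genes of the comparison were CD3E, GATA1 and ALAS2. CD3E had a spleen-only promoter peak at chr9:45619269-45619894 with a −log10 p of 16.8 in replicate 1 and 39.4 in replicate 2, at the 76.8th percentile. The same interval met a peak of the 28 day liver list and of no other list. GATA1, which drives red cell and megakaryocyte genes, and ALAS2, which starts heme synthesis in red cells, lie on the X chromosome and so outside the 3 sets. Both had promoter peaks in each list. The GATA1 peak had values of 19.1 and 46.1 in spleen (percentile 79.4) and of 20.4 and 3.47 in liver (percentile 3.48, IDR 0.603). The ALAS2 peak had 17.6 and 53.8 in spleen (percentile 77.6) and 22.5 and 3.77 in liver (percentile 5.88). Liver replicate 2 was thus the low value at both genes, and neither peak was found in the other 6 lists. A further GATA1 peak upstream, at chrX:42894304-42894762, was in the spleen list alone, with 24.2 and 77.7.

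Lymphoid genes were the group with most promoters open in spleen alone. Of 53 used, 25 (47.2%) had a spleen-only promoter peak, against 8.39% of all genes, and 6 had a liver-only one, against 17.0% of all. Spleen was the single organ with a promoter peak for 15 genes, and liver for none. Among T and NK cell genes, 11 of 19 had a spleen-only promoter peak. Among those that followed CD3E, CD247, the zeta chain of the T cell receptor complex, had 13.9 and 29.3, and CD2, an adhesion receptor, had 13.8 and 38.1. The costimulatory receptor CD28 had 7.58 and 20.2. CD3D and CD3G, neighbouring genes that share 1 peak, had 6.70 and 18.9. In each of these peaks replicate 2 gave the higher value. TCF7 was the 1 gene of this list with a liver-only promoter peak, with 15.8 and 13.3.

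Among B cell genes, 9 of 19 (47.4%) had a spleen-only promoter peak, against 8.39% of all genes. POU2AF1, a coactivator of octamer factors in B cells, had the strongest, with values of 15.7 and 38.4. The antigen receptor chain CD79A had 14.6 and 13.9. MS4A1, which encodes CD20, had 8.91 and 24.1. SPIB, an ETS factor of lymphocytes, had 8.57 and 10.1, and the kinase BLK had 6.68 and 14.7. These lay between the 42.3rd and 75.1st percentile of the spleen list. Some of the others stood lower, down to the 1.39th percentile. A liver-only promoter peak was at 3 B cell genes (15.8%), near the 17.0% of all genes. IRF4, a factor of activated B cells and plasma cells, had 111 and 11.4, EBF1 14.9 and 5.92, and CIITA 3.37 and 6.17. In the list shared by lymphocytes, IKZF1 (29.0 and 35.9), CD48 (22.7 and 18.9), CCR7 (13.8 and 28.6), LTB (13.1 and 11.4) and CORO1A (5.61 and 19.7) had spleen-only promoter peaks. IKZF1 also had 2 promoter peaks found in both lists and a weak liver-only one (10.1 and 3.67), and RAC2 had a liver-only one (48.5 and 12.8). Of 19 myeloid genes 5 (26.3%) had a spleen-only promoter peak, against 8.39% of all genes. Among them was ITGAM (19.0 and 16.3), an integrin chain of macrophages and granulocytes. The scavenger receptor MARCO had 9.35 and 21.6, NCF1 of the phagocyte oxidase 7.90 and 53.2, and SPIC, a factor of red pulp macrophages, 5.13 and 43.9. A promoter peak found in both lists was present at 15 of 19 myeloid genes (78.9%), against 66.8% of all genes.

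Stromal genes were split by kind. Of 14 genes that pattern the spleen stroma, 5 (35.7%) had a spleen-only promoter peak, against 8.39% of all genes, and 5 (35.7%) a liver-only one, against 17.0%. Of the spleen-only peaks 4 stood at or above the 83.8th percentile of their list. TLX1, without which no spleen forms in mice, had values of 56.7 and 76.9 at the 92.7th percentile and no liver promoter peak. It was the third strongest spleen-only promoter of all genes. NKX2-5, shared with the heart programme, had 42.9 and 73.0 at the 90.7th percentile, and WT1, a factor of mesothelium and spleen stroma, had 41.3 and 41.4 at the 90.4th. NKX2-3, needed in mice for a normal spleen, had 24.4 and 24.5 at the 83.8th, and NR5A1 had 17.8 and 6.42 at the 40.1st percentile. The liver-only peaks of this list belonged to NR2F2 (32.6 and 10.4), MEIS2 (20.5 and 7.30), NKX3-2 (6.92 and 5.35), NR5A1 (10.6 and 4.72) and WT1 (9.44 and 3.53), from the 62.5th percentile of the liver list downwards. At NR5A1 the organs had separate promoter peaks. At WT1 the spleen-only peak (chr2:28411157-28412077) and the liver-only peak (chr2:28412087-28412561) almost touched, so WT1 lay at the edge of the definition.

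Of 18 reticular and mesenchymal genes, 9 (50.0%) had a spleen-only promoter peak, against 8.39% of all genes, and 3 (16.7%) a liver-only one, near the 17.0% of all genes. ACTA2, the actin of smooth muscle and myofibroblasts, had 27.5 and 47.6. CXCL13, which draws B cells into follicles, had 24.0 and 28.9. PDGFRA (14.6 and 16.3), COL1A1 (13.2 and 15.2), VCAM1 (11.8 and 26.2) and COL3A1 (11.5 and 19.3) followed, and the liver-only peaks were at PDGFRB (49.2 and 9.51), ACTA2 (9.83 and 9.28) and PDPN (11.3 and 5.77). Of 17 endothelial genes, 2 (11.8%) had a spleen-only promoter peak, ERG (9.51 and 9.77) and TEK (4.10 and 12.0), a share near the 8.39% of all genes. A liver-only one was at 5 (29.4%), against 17.0% of all, led by VWF (17.6 and 18.8) and PROX1 (10.8 and 10.2) and including CLEC4G (28.9 and 8.73), a lectin of liver sinusoids. Whether these peaks, that of PROX1 included, came from endothelial cells was not tested. By class, 16 of 49 stromal genes (32.7%) had a spleen-only and 13 (26.5%) a liver-only promoter peak.

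Many blood-forming genes stood higher in the spleen list than in the liver list. Of the 30 with a promoter peak in each list, 23 stood higher by percentile in spleen and 7 in liver. Over all 12534 genes with a promoter peak in each list, these counts were 6299 and 6235. A promoter peak found in both lists was present at 27 of 39 genes (69.2%), close to the 66.8% of all genes and so no mark of this group. The count was 19 with an IDR of 0.05 or lower in the own list and 8 with that limit in both lists. The share of all genes was not counted at these limits, so the fall cannot be read as particular to this group. FECH, the last enzyme of heme synthesis, had values of 157 and 275 in spleen and of 411 and 126 in liver. UROD, another heme enzyme, had 103 and 154 in spleen and 225 and 21.4 in liver. SLC25A37 had 127 and 220 in spleen and 328 and 79.9 in liver. By percentile FECH (98.0 in spleen, 99.6 in liver) and SLC25A37 (97.0 and 98.0) stood slightly higher in the liver list, and UROD (96.1 and 82.3) in the spleen list. Liver replicate 2 was thus the lower liver value at all 3. EPB42, of the red cell membrane skeleton, had 95.4 and 208 in spleen and 85.8 and 4.85 in liver. SLC4A1, the anion exchanger band 3, had 91.7 and 118 in spleen and 33.7 and 9.88 in liver. EPB42 stood at the 95.6th percentile in spleen and the 23.2nd in liver, and SLC4A1 at the 95.4th and the 60.8th. Among progenitor genes, MEIS1 had 90.9 and 60.8 in spleen (percentile 93.1) and 231 and 44.4 in liver (percentile 93.5), and LMO2 had 41.0 and 60.6 in spleen and 52.4 and 17.3 in liver. ZFPM1, the cofactor of GATA1, had 144 and 204 in spleen and 266 and 48.5 in liver. HBB and NFE2 were chosen after their values were seen. HBB, the beta globin, had 65.9 and 132 in spleen (percentile 93.6) and 66.6 and 12.2 in liver (percentile 67.8), and NFE2 had 58.7 and 96.3 in spleen (percentile 92.9) and 34.0 and 21.7 in liver (percentile 82.6).

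Red cell genes also had peaks that the liver list lacked. Of 22 erythroid genes 12 (54.5%) had a spleen-only promoter peak, against 8.39% of all genes. The peak of SLC25A37 was the strongest spleen-only promoter of any gene, with 77.4 and 131 at the 94.5th percentile, about 1 kb upstream of the start site and beside a promoter peak found in both lists. FECH had a spleen-only peak with 38.7 and 136 beside its shared one, TAL1 one with 38.4 and 84.9 and TRIM58 one with 34.6 and 75.3. KLF1, an erythroid activator of globin genes, had 3 spleen-only promoter peaks, the strongest at chr2:66144602-66144894 with 28.0 and 78.4, and no liver promoter peak. Liver-only promoter peaks occurred at 5 erythroid genes (22.7%, against 17.0% of all), SPTB (170 and 19.0), ANK1 (13.6 and 18.5), HBM (27.4 and 12.4), TAL1 (13.2 and 8.66) and GFI1B (5.43 and 6.30), and at 8 of 17 progenitor and megakaryocyte genes (47.1%), led by GP1BA (163 and 24.1) and GFI1 (20.7 and 8.60). By class, 15 of 39 blood-forming genes (38.5%) had a spleen-only promoter peak, against 8.39% of all genes, and 13 (33.3%) a liver-only one, against 17.0%.

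The groups also differed in their placement within the lists. For the 17 erythroid genes with a promoter peak in each list, the median percentile of the strongest promoter peak was 92.9 in spleen and 68.5 in liver, and 14 stood higher in the spleen list. All 12534 genes with a promoter peak in each list had medians of 90.1 and 89.5, and 6299 of them stood higher in spleen. Ranking by 1 replicate at a time gave erythroid medians of 92.5 and 91.8 in the spleen replicates and of 69.5 and 76.9 in the liver replicates. KIT, the stem cell factor receptor, chosen after its values were seen, went the other way, at 50.5 in spleen and 83.6 in liver. The 35 lymphoid genes had medians of 75.2 and 50.5, the 34 stromal genes of 82.2 and 62.6, and the 22 hepatocyte genes of 69.7 and 90.0. The 15 myeloid genes had medians of 75.9 and 69.0, with 7 higher in spleen and 8 in liver. Ranked by replicate 1 alone 11 of them stood higher in spleen, and by replicate 2 alone 8. The 9 housekeeping genes had medians of 95.1 and 92.4, and all 9 stood higher in the spleen list. By replicate 1 alone 6 of the 9 did, and by replicate 2 alone 8.

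**Figure D3:**
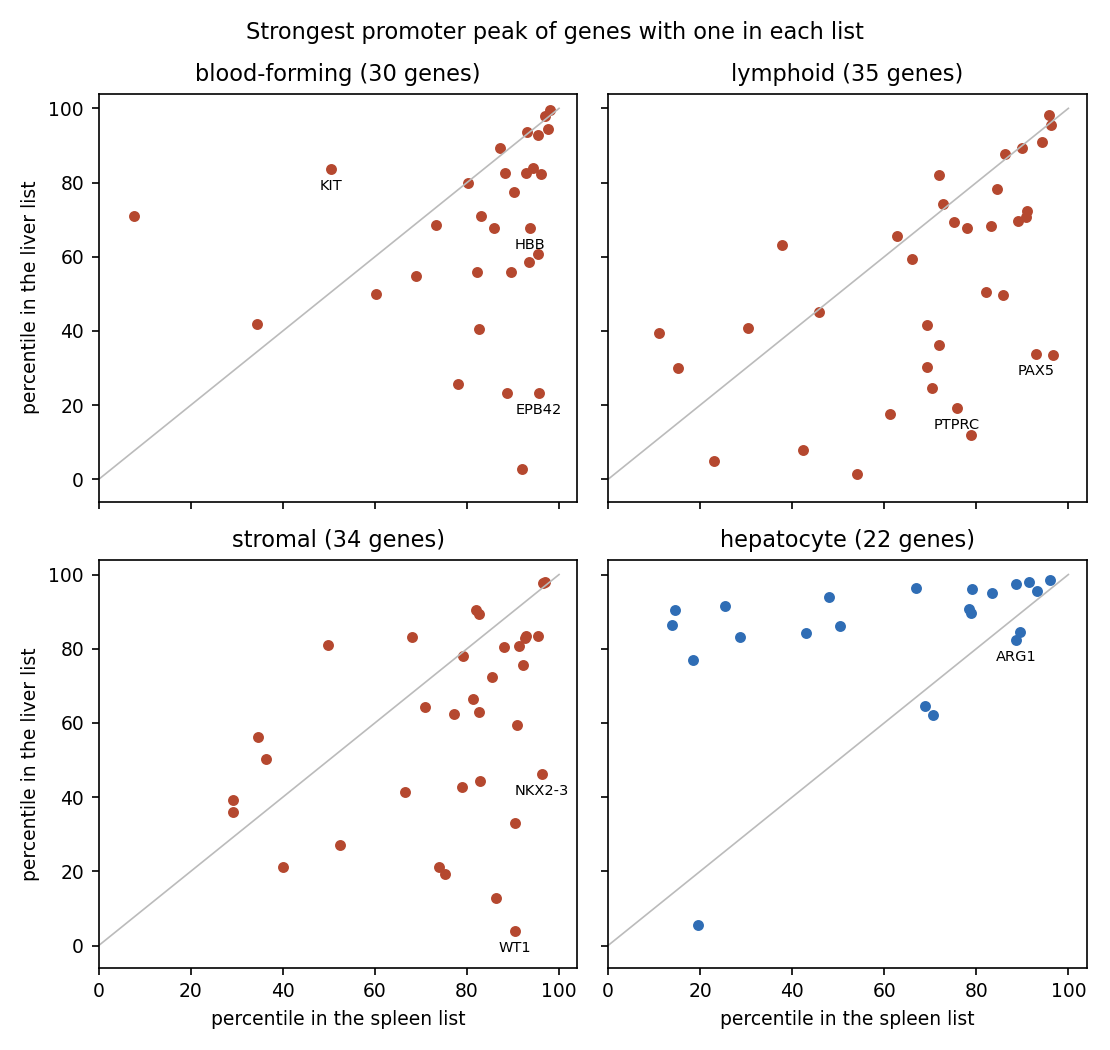
Percentile of the strongest promoter peak in the spleen list (x axis) and in the liver list (y axis), 1 point per gene with a promoter peak in each list, by gene class; the line marks equal percentiles. Most blood-forming and lymphoid points lie below the line and most hepatocyte points above it.

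Most hepatocyte genes had a promoter peak in the liver-only set. Of 59 genes, 46 (78.0%) had a liver-only promoter peak, against 17.0% of all genes, 34 had a promoter peak in liver alone, and none in spleen alone. Among secreted proteins, 17 of 20 had a liver-only promoter peak. F2 had values of 249 and 68.6 at the 97.1st percentile, AMBP, the precursor of alpha-1-microglobulin, had 240 and 46.6, and the fibrinogen chains FGG and FGA had 220 and 42.5, and 226 and 25.8. The apolipoproteins APOA2 (142 and 31.4) and APOC3 (134 and 24.5) followed. Of 21 metabolic genes 18 had one, among them the amino acid enzyme HPD (203 and 48.5) and the bile salt pump ABCB11 (243 and 43.4). The tryptophan enzyme TDO2 had 314 and 27.7, and the bile salt importer SLC10A1 117 and 26.6. Of 18 regulators 11 had one, led by the nuclear receptors NR1I2 (221 and 50.0) and NR1I3 (177 and 43.1), the pioneer factor FOXA1 (156 and 37.8), NR5A2 (215 and 33.7), FOXA2 (130 and 26.7) and the bile acid receptor NR1H4 (158 and 17.6). In all of these liver replicate 1 gave the higher value.

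A spleen-only promoter peak occurred at 5 of 59 hepatocyte genes (8.47%), near the 8.39% of all genes and so no mark of this group. ARG1, the arginase of the urea cycle, which myeloid and red cells also express in some species, had the strongest, with 35.1 and 82.5 at chr1:32028622-32029259, beside a separate liver-only peak. VTN (4.42 and 19.8), FOXA1 (5.22 and 7.95), CEBPA (4.51 and 8.02) and IGF1 (4.36 and 7.89) had weak ones, all at or below the 25.4th percentile. ALB, AFP and CPS1, named after their values were seen, had no peak in either list at their annotated promoters. Within 10 kb of the gene they had 11, 9 and 43 liver-only peaks and no spleen-only peak. Counting all peaks within 10 kb, 58 of 59 hepatocyte genes had more liver-only than spleen-only peaks and 1 had fewer, against 10638 and 3074 of the 18725 genes. For lymphoid genes the order turned, with more spleen-only peaks at 35 of 53 and more liver-only peaks at 13.

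Lists of other cells that whole organs may hold gave the following values, beside 8.39% of all genes with a spleen-only promoter peak, 17.0% with a liver-only one and 23.3% with none in either list. Of 8 pancreas genes, 1 (12.5%) had a spleen-only promoter peak, the enzyme CPB1 (21.8 and 34.2), 2 had liver-only ones, PDX1 (92.4 and 8.78) and CEL (68.7 and 7.41), and 5 had none, among them the defining genes PTF1A, CPA1, PNLIP and INS. Of 7 bile duct genes 3 (42.9%) had liver-only promoter peaks, among them CLDN4 (190 and 17.3) and CFTR (87.3 and 14.8). The bile duct genes KRT19 and SOX9 had no promoter peak in either list, and EPCAM and SPP1 had only ones found in both. Of 9 stellate and mesothelial genes 2 (22.2%) had spleen-only promoter peaks, HAND2 (23.4 and 40.3) and RSPO3 (7.31 and 10.8), and 5 (55.6%) had liver-only ones, led by KRT18 (242 and 74.1) and GATA4 (178 and 30.2). A peak at a listed gene, KRT18 and GATA4 included, does not show that it came from the cells the list is named for. The part of these cells in the sets was not tested.

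Beyond the lists, the 10 genes with the strongest spleen-only promoter peaks were SLC25A37, PTK7, TLX1, CLDN15, RSPH9, NKX2-5, RAB3IL1, LOC102168098, WT1 and SIPA1. PTK7, a receptor of planar cell polarity, had 70.4 and 79.6, and its interval was also found in all 4 of the other newborn tissues. The tight junction gene CLDN15 had 47.9 and 132 and the cilium gene RSPH9 44.8 and 188, and neither interval was found in another list. In liver the order was ZNF654, DGKG, DISP2, LOC102165015, LOC100515741, GLT1D1, LOC100623541, NAV2, LRRC30 and CGN, from 404 and 149 for ZNF654 to 231 and 82.5 for CGN. All 10 of these intervals were in both later liver lists. Of the 10 spleen-only intervals, those of PTK7 and WT1 were in the 28 day list, and none was in the 180 day list. When the IDR was capped at 0.05, the 28 day list held 94.9% of liver-only and 22.3% of spleen-only peaks. For the 180 day list these shares were 91.4% and 18.2%. Counts out of 10 are too few to set the strongest promoters apart from these shares. The genes with most spleen-only peaks within 10 kb were long ones, LPP (43), RAD51B (40), FOXP1 (30), GPC6 (29) and PDE4D (26). PDE4D also had most liver-only peaks (71), before NAV2 (69), WWOX (62), AUTS2 (60) and RORA (59). GPC6, a heparan sulfate proteoglycan, had 8 liver-only peaks, against 36 at LPP and 42 at RAD51B.

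The other 6 lists were not used to form the sets and place them in a wider frame. Of the spleen-only peaks 62.1% (61.6 to 62.7) met no peak of newborn heart, kidney, lung or muscle, as did 49.3% of the liver-only peaks (48.9 to 49.7) and 13.3% of the spleen peaks in both lists (13.0 to 13.6). Newborn kidney, the longest of these lists, held 38.4% of the liver-only and 23.5% of the spleen-only peaks. In later liver, the 28 day list held 66.5% of the liver-only peaks and the 180 day list 57.2%. Spleen-only peaks were found there at 19.3% and 11.9%. Of the spleen peaks in both newborn lists, 88.4% were in the 28 day and 78.3% in the 180 day list, and 3928 (7.94%, 7.71 to 8.18) in neither.

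**Figure D4:**
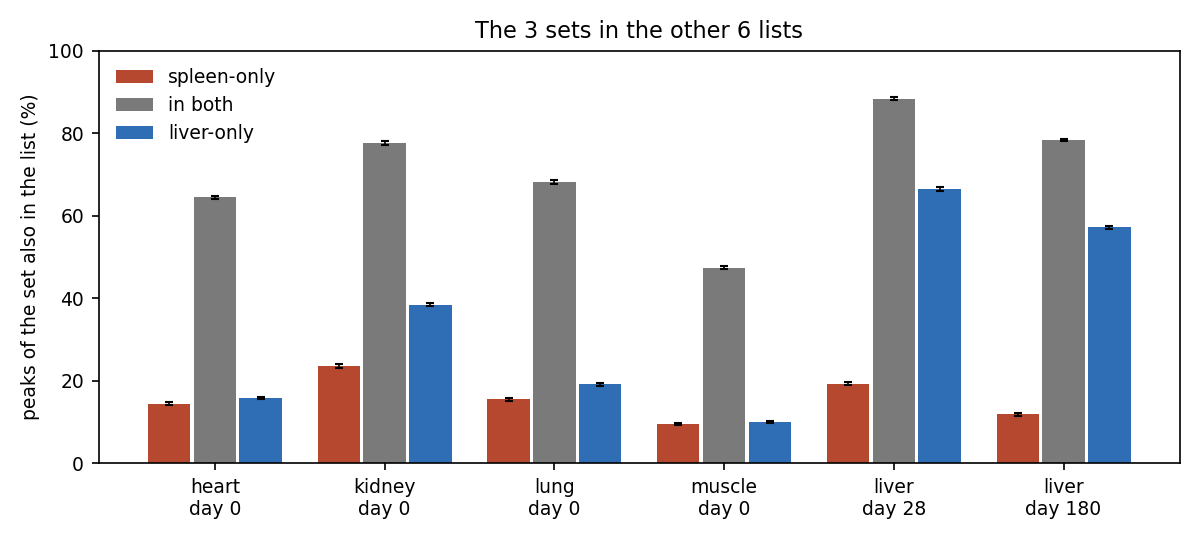
Share of the spleen-only, shared (spleen peaks in both) and liver-only sets that overlap a peak of each of the other 6 lists (y axis, percent; bars with Wilson 95% intervals). Shared peaks recur most in every list, and liver-only peaks recur in the later livers at 66.5% and 57.2%.

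The later liver lists held different shares of the peaks near each gene group. Of the 88 spleen peaks in both lists within 10 kb of erythroid genes, 31 (35.2%) were in neither later liver list, against 7.24% for all genes. Of the 48 spleen-only peaks near erythroid genes, 43 (89.6%) were in neither, against 73.2%. Near T and NK cell genes the order was the reverse, with 27 of 46 spleen-only peaks (58.7%) in the 28 day liver list, against 20.8% for all genes. Near B cell genes it was 11 of 53 (20.8%), and near genes patterning the spleen stroma 4 of 43 (9.30%). The promoter peaks of NFE2 and AHSP, whose sequences are given above, and of SLC4A1 were in neither later list, whereas those of CD247 and POU2AF1 were in the 28 day list, and those of CD2 and CD28 were in both later lists.

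The sequence under the summits differed between the sets. Windows of 100 bp on each side of the summit were searched for the 17 motifs on both strands, with promoter peaks left out. A match is a string of letters and not a bound site. SPI1 letters were in 5.38% of the spleen-only windows (5.13 to 5.64), 5.25% of the spleen windows in both lists and 1.60% of the liver-only windows (1.50 to 1.70), against 3.74% of all windows. NKX2 letters were in 3.30% of spleen-only and 1.59% of liver-only windows, IRF (GAAANNGAA) in 8.95% and 5.42%, RUNX (TGTGGTT) in 6.81% and 4.28%, the octamer of POU2F (ATGCAAAT) in 1.39% and 0.762%, and MEF2 (CTAAAAATA) in 1.03% and 0.448%. HNF4 letters were in 0.186% of the spleen-only and 1.45% of the liver-only windows, HNF1 (GTTAATNAT) in 0.539% and 1.62%, FOXA in 2.54% and 5.81%, and ONECUT (ATCGAT) in 0.326% and 0.873%. EBF letters (CCCNNGGGA) were in 4.22% and 4.31%, with overlapping intervals. In all, 9 motifs had the higher share in spleen-only and 7 in liver-only windows with intervals apart. With an IDR of 0.05 or lower these were 8 and 6, and RUNX was at 5.38% (4.63 to 6.24) and 4.49% (4.07 to 4.95), with overlapping intervals. The spelling of each motif in reverse order gave 4 and 1. Summit windows had a median GC content of 48.3% in the spleen-only, 50.2% in the liver-only and 53.7% in the shared set.

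**Figure D5:**
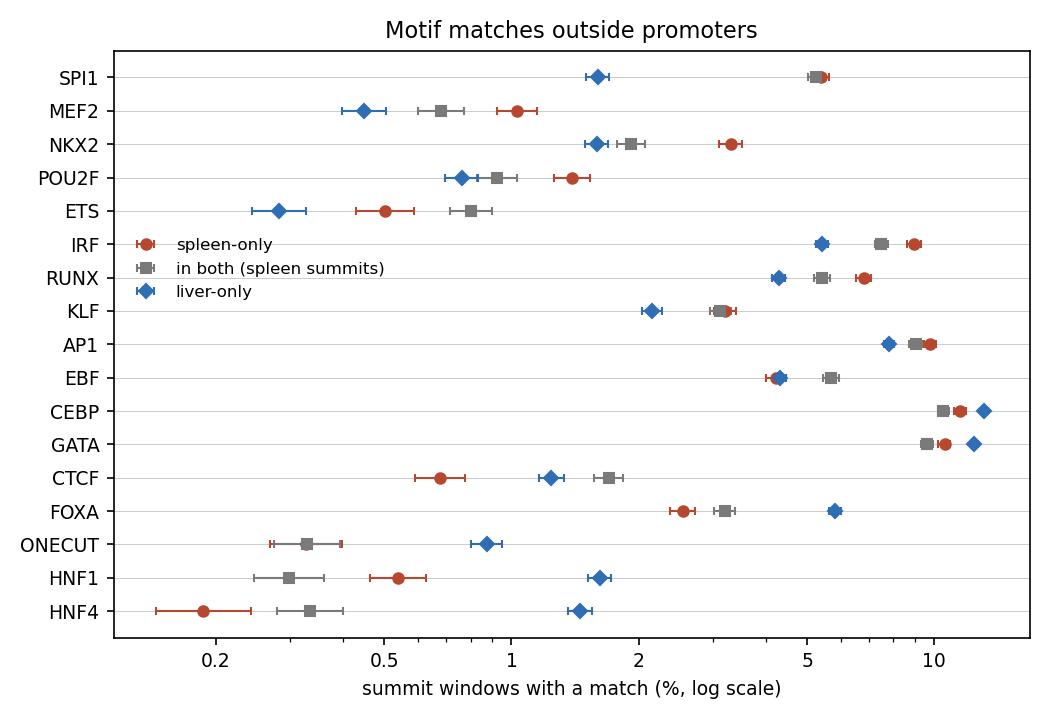
Share of summit windows outside promoters with a match to each of 17 motifs (x axis, percent, log scale) in the spleen-only, shared and liver-only sets, ordered by the ratio of spleen-only to liver-only; bars are Wilson 95% intervals. SPI1 stands at the spleen-only end with 5.38% against 1.60%, and HNF4 at the liver-only end with 0.186% against 1.45%.

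GATA letters were the more frequent in the liver-only set. They were in 10.6% of the spleen-only and 12.4% of the liver-only windows. GATA4 and GATA6, which act outside the blood lineages, read the same letters. Among the peaks found in both lists the share differed by the later liver lists. Of the 3601 such spleen peaks outside promoters that were in neither later liver list, 17.7% held the letters (16.5 to 19.0), against 8.70% of the 32019 that were in at least 1 (8.40 to 9.01). The share also differed by the other newborn tissues, with 15.1% of the shared peaks found in none of them (14.3 to 16.1) and 8.44% of those found in at least 1 (8.13 to 8.77). SPI1 letters were at 4.86% (4.20 to 5.61) and 5.29% (5.05 to 5.54) by the later liver lists, with overlapping intervals, and at 8.25% (7.59 to 8.96) and 4.61% (4.38 to 4.86) by the other newborn tissues.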

How the data were processed

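The 8 groups of the series were taken from the labels, and the lists of newborn spleen and newborn liver were compared. Per the study's methods, reads were aligned by the authors to Sscrofa11.1 with Bowtie2, filtered with SAMtools (1.3.1 in the submitters' processing notes), turned into peaks per replicate with MACS2 and matched between replicates with IDR. The MACS2 options named there combine shifted, extended reads with whole-fragment input, so a summit may lie off the insertion site. The deposited −log10 p of a peak is that of either replicate, and the authors' p-value column holds the smaller one. The deposited score is the scaled IDR, for which 540 stands for an IDR of 0.05, and the lists were not filtered on it. The deposited lists also give the IDR itself as a −log10 value.

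Peaks on chromosomes 1 to 18 were sorted into the 3 sets by an overlap of 1 bp. Another 3038 spleen and 4508 liver peaks lay elsewhere. Genes came from the RefSeq annotation of Sscrofa11.1, which gave 18725 protein-coding genes and 44112 promoters. Of the 269 listed genes, 10 were not matched by symbol, 5 lay on the X chromosome and 2 were annotated at more than 1 locus. The members, gene lists and motifs were chosen with earlier results of these data known. Named genes were the markers, the 10 strongest promoters and the 5 genes with most peaks per set, and up to 6 members per gene list by the smaller −log10 p, with those that went against the list. Other genes were chosen after their values were seen and are named as such. No test was made, since each list merges its libraries. A peak missing from a list is one that was not called. Overlaps and motif searches were checked on simulated data. Python 3.11.15, pandas 2.3.3, pysam 0.24.0 and scipy 1.17.1 were used. Alternatives covered the IDR, list length, overlap, promoter width, replicate and motif window. Some members of the gene lists are counted but not reported here by name.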

Additional observations from a re-analysis of the deposited data

How the results depend on the processing

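No paired analysis was possible because no result comes from a test. Each list holds only peaks matched in both libraries of an organ, and their −log10 p values depend in part on library depth. With the intervals of a single replicate, spleen-only peaks made up 40.1% of the spleen list under either choice and liver-only peaks 57.3% to 57.6% of the liver list. The sizes of the sets moved with the rule, and the cause was not tested. With peaks at an IDR of 0.05 or lower in both lists, 61.2% of spleen and 63.5% of liver peaks were in 1 list. Promoters held 19.5% of the spleen-only, 18.8% of the liver-only and 64.1% of the spleen peaks in both lists. A spleen-only promoter peak was at 2610 genes. A promoter peak in both lists was at 8 blood-forming genes, with no count of all genes beside it. With the limit on the own list alone, these shares were 15.3%, 40.6%, 5.34%, 6.16% and 42.5%, and 178 genes had a spleen-only and 531 a liver-only promoter peak, among them 7 lymphoid and 6 stromal genes for spleen and 29 hepatocyte genes for liver. With equal numbers of top peaks, 51.6% of spleen and 52.0% of liver peaks were in 1 list. Promoters then held 8.80% of the spleen-only and 30.3% of the spleen peaks in both lists. A spleen-only promoter peak was at 3177 genes (17.0%) and a liver-only one at 2194 (11.7%). This turned the main order of 1571 and 3191 genes. An overlap of 50% of the peak gave 45.6% and 62.1%, with promoter shares of 6.48%, 6.69% and 29.9%, and a promoter from 1 kb upstream gave 4.23%, 4.39% and 26.5%. The share of lymphoid genes with a spleen-only promoter peak was above that of all genes in each of the 7 alternatives, from 13.2% against 0.951% to 62.3% against 11.2%, and the same held for hepatocyte genes in the liver-only set, from 49.2% against 2.84% to 79.7% against 21.0%. Motif differences between the sets kept their sign in all 17 motifs with a window of 50 bp and with an IDR of 0.05 or lower, but at that IDR the intervals of RUNX and CTCF came to overlap. With reversed letters 4 motifs, rather than 9, had the higher share in spleen-only windows.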
